A study of Mus musculus with 9 samples.

Results

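The genes described here are the Notch receptors, their ligands and the Hey targets: Notch1, Notch2, Notch3 and Notch4, the ligands Dll1, Dll4, Jag1 and Jag2, and the targets Hey1 and Heyl. They were chosen by name, as 10 of the 22092 genes of the count tables, and all 10 were found. The study asked which ribosome-bound mRNAs are present in astrocyte perivascular endfeet, the ends of astrocyte processes that cover the vessels of the brain, and compared them with those of whole astrocytes. Translating ribosome affinity purification (TRAP) pulls down GFP-tagged ribosomes with an antibody and recovers the mRNAs bound to them. All mice were 2 months old, of the strain Aldh1L1 JD130 and the genotype tg:Aldh1L1-L10aGFP, in which the tagged ribosomal protein L10a is driven by the astrocytic Aldh1l1 promoter of a bacterial artificial chromosome. The 3 whole astrocyte TRAP libraries were each made from 1 brain without its choroid plexus, and the 6 endfeet TRAP libraries each from brain vessels pooled from 8 mice. Every library of both groups carried the transgene. TRAP on mice without it, which would measure untagged RNA that comes down with the beads, was not analysed here.

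Notch receptors sit in the cell membrane and bind Delta-like and Jagged ligands on a neighbouring cell. Binding lets ADAM proteases and then gamma-secretase cut the receptor, and the freed intracellular domain enters the nucleus, binds the DNA-binding protein RBPJ and turns on genes of the Hes and Hey families. In the brain the pathway is known from neural stem cells and astrocytes, and in vessels from the sprouting of endothelial cells and the upkeep of mural cells, the smooth muscle cells and pericytes of the vessel wall.

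In the RNA recovered by TRAP, mRNAs of all 4 receptors and of 3 of the 4 ligands were higher in endfeet than in whole astrocyte libraries. Hey1 was lower and Heyl was near the same level. Whether these mRNAs were bound to tagged ribosomes was not tested. Of the 10 mRNAs, all of which passed the filter on low counts, 7 rose (Notch1, Notch2, Notch3, Notch4, Dll4, Jag1 and Jag2), 1 fell (Hey1) and 2 did not pass the threshold (Dll1 and Heyl). Over all 14427 genes tested, 20.7% rose and 13.9% fell, or 34.6% in either direction. All endfeet libraries were above all whole astrocyte libraries for 6 of the 10 mRNAs, beside 18.9% of all genes tested. They were all below for 1 of the 10, beside 23.8% of all genes tested. The median log2 fold change of the 10 mRNAs was 3.61, beside 0.10 over all genes tested. Without endfeet library 1, which had the highest summed level of choroid plexus mRNAs, 7 of the mRNAs rose and 1 fell, and the same counts were found without endfeet library 6, the shallowest. Changes were tested with edgeR's quasi-likelihood test at an adjusted p of 0.05, and levels are given as CPM, the counts per 1000000 counts on genes after scaling by edgeR's TMM factors. The depth differed between the groups, at 35984144 to 43521208 counts on genes in a whole astrocyte library and 2319495 to 13450588 in an endfeet library, where 3 counts stood for 0.197 to 1.37 CPM. The spread differed as well, with a common dispersion of 0.0141 between whole astrocyte libraries and of 0.724 between endfeet libraries.

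**Figure D1:**
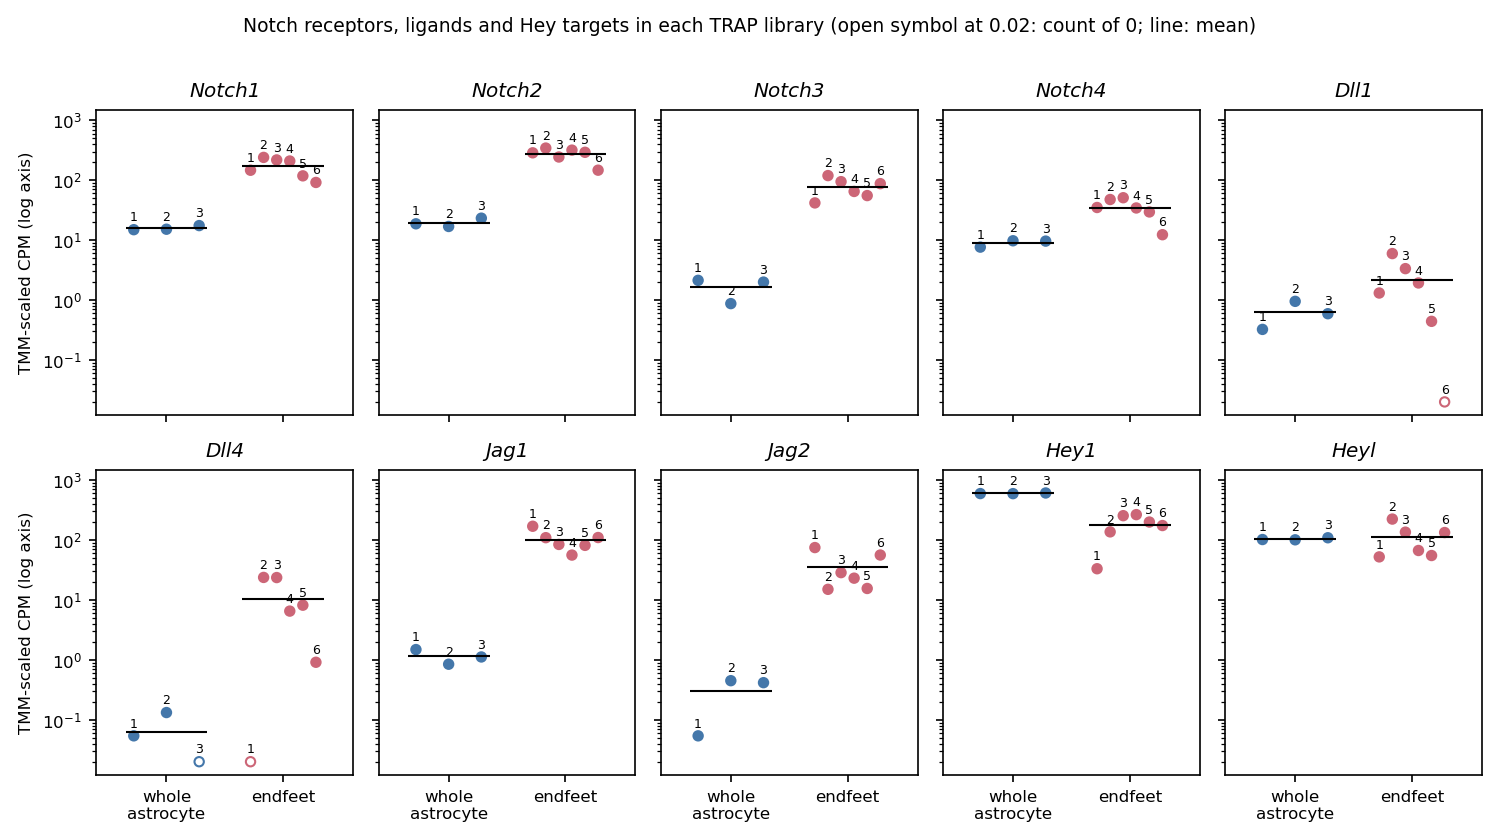
TMM-scaled CPM (log axis) of the 10 mRNAs in each library, with whole astrocyte TRAP in blue (3 libraries) and endfeet TRAP in red (6 libraries), the library number above each point, a line at the group mean and an open symbol for a count of 0. All endfeet libraries lie above all whole astrocyte libraries for Notch1 to Notch4, Jag1 and Jag2 and below them for Hey1, whereas the groups overlap for Dll1, Dll4 and Heyl. Of all 14427 genes tested, 18.9% lie wholly above and 23.8% wholly below.

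Vessels hold other cells beside the endfeet, and markers of these cells were measured in the same libraries. All 10 endothelial markers rose in endfeet TRAP, where their summed level was 3256 to 4936 CPM against 6.998 to 8.70 CPM in whole astrocyte TRAP, and 1 of them, Ly6c1, was at 0 in all whole astrocyte libraries. All 10 mural markers rose as well, with a sum of 4081 to 8576 against 41.6 to 47.7 CPM, and so did all 6 fibroblast markers (676 to 1424 against 20.6 to 34.99 CPM), all 4 markers of choroid plexus and ependyma (6544 to 87573 against 40.1 to 1406 CPM) and 4 of 7 markers of microglia and macrophages (77.8 to 162 against 15.9 to 19.2 CPM). The choroid plexus sum was highest in endfeet library 1 and lowest, among whole astrocyte libraries, in library 1. Most of it was Ttr, with means of 31273 CPM in endfeet TRAP and 845 CPM in whole astrocyte TRAP. Of the 5 neuronal markers 2 fell and none rose (862 to 1830 against 3165 to 3715 CPM), and of the 5 oligodendrocyte markers 1 fell and none rose (187 to 520 against 573 to 598 CPM). The 8 astrocyte markers were split, with Aqp4 higher, Aldh1l1, Sox9 and Gjb6 lower and 4 others not past the threshold. The sum of the 8 was 9127 to 28769 against 11852 to 14196 CPM. Most of it was Slc1a2, with means of 15290 CPM in endfeet TRAP and 8040 CPM in whole astrocyte TRAP. The part of endothelial, mural and other cells in the changes of the Notch genes was not tested. In such bulk libraries fewer cells of a type and less RNA per cell cannot be told apart.

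Among the receptors, Notch1, the member of the family with the best known role in stem cells and in endothelial sprouting (chromosome 2, 26457903 to 26516663 in mm10, minus strand), had 14.9, 15.2 and 17.5 CPM in whole astrocyte libraries 1 to 3. In endfeet libraries it ranged from 91.7 CPM in library 6 to 240 CPM in library 2, with a median of 178 CPM. No library of one group reached those of the other, and the log2 fold change was 3.43 (SE 0.400, 95% interval 2.56 to 4.29, adjusted p = 3.1e-05 in edgeR), which corresponds to means of 171 ± 60.1 (SD, n = 6) and 15.9 ± 1.40 CPM (SD, n = 3).

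Notch2 (chromosome 3, 98013527 to 98150361, plus strand), a receptor expressed in many tissues, had 18.7, 16.9 and 23.3 CPM in whole astrocyte TRAP. Its endfeet libraries held 147 (library 6) to 344 CPM (library 2), with a median of 289 CPM, and this was the receptor with the smallest relative spread in endfeet TRAP (coefficient of variation 25.6%). The groups did not overlap, and the log2 fold change was 3.79 (SE 0.352, 95% interval 3.03 to 4.55, adjusted p = 4.6e-06 in edgeR).

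Notch3, the receptor of vascular smooth muscle cells and pericytes whose mutations cause the small vessel disease CADASIL, lies on chromosome 17 (32120820 to 32166852, minus strand). It had the largest change among the receptors and the lowest level in whole astrocyte TRAP, with 2.13, 0.873 and 2.00 CPM from 79, 33 and 91 counts. In endfeet TRAP it held 41.8, 119, 94.6, 64.9, 55.4 and 87.6 CPM in libraries 1 to 6. The lowest endfeet library was thus well above the highest whole astrocyte library, and the log2 fold change was 5.53 (SE 0.579, 95% interval 4.28 to 6.78, adjusted p = 1.3e-05 in edgeR), or 46.3 times between the means.

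Notch4, a receptor known mainly from endothelial cells, lies on the same chromosome (34564268 to 34588503, plus strand) and had the smallest change of the receptors. It held 7.65, 9.76 and 9.63 CPM in whole astrocyte libraries 1 to 3 and 35.04, 47.6, 51.0, 34.4, 29.5 and 12.3 CPM in endfeet libraries 1 to 6. The groups did not overlap, although endfeet library 6, with 27 counts, came close to the whole astrocyte libraries. The log2 fold change was 1.96 (SE 0.539, 95% interval 0.80 to 3.12, adjusted p = 0.013 in edgeR). The call was lost when whole astrocyte library 1, 2 or 3 was left out (edgeR adjusted p = 0.071, 0.061 and 0.061) and with endfeet libraries 4 to 6 alone (log2 fold change 1.38, edgeR adjusted p = 0.068).

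The deposited tables count each transcript separately, and the rows of Notch4 differed between the groups in more than their level. Beside the row used here (6591 bases, 30 exons), which held 1091 counts over the whole astrocyte libraries and 2235 over the endfeet libraries, there is a short transcript that lies wholly inside exons 1 to 3 of the used one and makes up 5.40% of its length. It held 0 counts in all 3 whole astrocyte libraries and 4, 13, 25, 27, 12 and 1 counts in endfeet libraries 1 to 6. A second such transcript, inside exons 18 to 21 (6.84% of the length), also held 0 counts in the whole astrocyte libraries, against 91 in the endfeet libraries. These were 3.67% and 4.07% of the counts of the used row in endfeet TRAP, whereas a count of 0 allows up to 0.275% in whole astrocyte TRAP. Another transcript, inside exons 23 to 28, held 1.19% against 0.716% in endfeet TRAP. A row of 6380 bases was close between the groups, at 65.3% of the used row for whole astrocytes against 68.3% for endfeet. Another of 642 bases, not wholly inside the used exons, stood at 2.38% against 0.268%. Which exons the whole astrocyte reads of Notch4 fell in was not tested, since positions of single reads were not available. All these rows were chosen after their values were seen, and their differences between the groups were not tested.

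Set against each other per kilobase of the transcript used, receptors in endfeet TRAP were made up of Notch2 with 44.3% ± 7.35 (SD, n = 6), Notch1 with 30.0% ± 4.19, Notch3 with 17.0% ± 7.19 and Notch4 with 8.76% ± 2.21 of the summed level of the 4 mRNAs. In whole astrocyte TRAP the shares were 36.4% ± 2.55 (SD, n = 3) for Notch2, 32.7% ± 0.729 for Notch1, 26.8% ± 3.53 for Notch4 and 4.05% ± 1.67 for Notch3. By these means Notch3 and Notch4 changed places and Notch2 and Notch1 led in both groups. In single libraries, however, Notch4 (9.99%) was still above Notch3 (9.79%) in endfeet library 1, and Notch3 (29.98%) was above Notch1 (26.5%) in endfeet library 6. The sum of the 4 receptors was 58.8 ± 15.0 CPM per kilobase in endfeet TRAP, against 5.12 ± 0.562. Levels per kilobase, here and below, take the counts as spread over the whole transcript. The short Notch4 transcripts inside exons 1 to 3 and 18 to 21, however, held 0 counts in whole astrocyte TRAP. How far the shares of Notch4 depend on this was not tested.

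Whether receptors changed unequally was tested on the log2 ratio of their levels in each library, among 6 ratios in all. The ratio of Notch3 to Notch1 was 2.20 higher in endfeet TRAP, with all 6 endfeet libraries above all whole astrocyte libraries (p = 0.0119 in a two-sided exact permutation test over 84 splits, the smallest p these libraries allow, and 0.0357 after Benjamini-Hochberg adjustment). The ratio of Notch4 to Notch1 was 1.51 lower on the log2 scale (difference -1.51), with all 6 endfeet libraries below (exact permutation p = 0.0119, adjusted 0.0357). How the short Notch4 transcripts with 0 counts in whole astrocyte TRAP bear on this ratio was not tested. For Notch2 to Notch1 the difference was 0.41 (exact permutation p = 0.119, adjusted 0.143), and 5 of 6 endfeet libraries were above all whole astrocyte libraries. Markers of mural cells, which are known to express Notch3, and of endothelial cells rose in the same endfeet libraries, as given above, and their part in these ratios was not tested. With endfeet libraries 4 to 6 alone the differences were 2.39 and -1.67, where 3 against 3 libraries cannot go below an exact permutation p of 0.1. When any library was left out, the differences ranged from 1.82 to 2.47 for Notch3 and from -1.58 to -1.40 for Notch4, and both adjusted exact permutation p were 0.107 without whole astrocyte library 1, 2 or 3, 0.0536 without endfeet library 2, 3, 4, 5 or 6 and 0.0357 without endfeet library 1, with fewer splits to draw on.

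**Figure D2:**
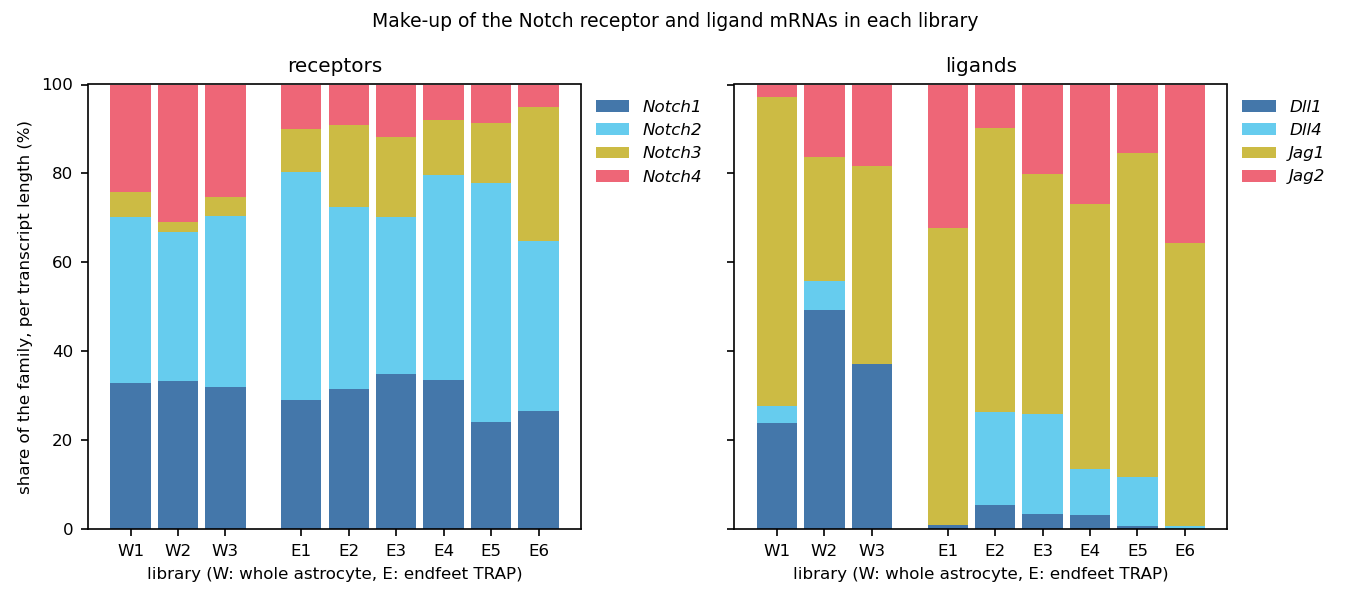
Share of each mRNA in the summed level (CPM per kilobase of transcript) of the 4 receptors (left) and the 4 ligands (right), in percent, for whole astrocyte libraries W1 to W3 and endfeet libraries E1 to E6. Notch4 takes 24.2% to 30.8% of the receptors in whole astrocyte libraries and 5.13% to 11.8% in endfeet libraries, and Dll1 takes 23.8% to 49.2% and at most 5.47% of the ligands. Whether the Notch4 counts are spread over the whole transcript, as these shares take them to be, was not tested.

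Of the ligands, Dll4, Jag1 and Jag2 had larger log2 fold changes than any receptor, and Dll1 a smaller one than all of them. Jag1, a Jagged ligand found on endothelial and smooth muscle cells (chromosome 2, 137081456 to 137116644, minus strand), had 1.49, 0.846 and 1.12 CPM in whole astrocyte TRAP, from 55, 32 and 51 counts. In endfeet libraries 1 to 6 it held 170, 109, 84.3, 56.0, 81.4 and 110 CPM. Library 1, which had the most choroid plexus mRNA, was the highest, and the groups were far apart, with a log2 fold change of 6.46 (SE 0.540, 95% interval 5.29 to 7.63, adjusted p = 2.0e-06 in edgeR) and of 6.23 without that library.

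Jag2, the other Jagged ligand (chromosome 12, 112907819 to 112929776, minus strand), held 0.0540, 0.450 and 0.417 CPM in whole astrocyte TRAP, from 2, 17 and 19 counts. Its endfeet libraries held 74.8, 15.0, 28.5, 23.1, 15.5 and 56.1 CPM. As for Jag1, libraries 1 and 6 were among the highest and the groups did not overlap, and the log2 fold change was 6.82 (SE 1.001, 95% interval 4.65 to 8.98, adjusted p = 1.9e-04 in edgeR). The level of 2 counts in whole astrocyte library 1 was below the 3 counts taken as the smallest amount that can be told from 0. The log2 ratio of Jag2 to Jag1 differed by 0.55 between the groups (exact permutation p = 0.571, adjusted 0.571), and no endfeet library lay outside the range of the whole astrocyte libraries.

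Dll4, the Delta-like ligand of arterial endothelial cells and of the tip cells of sprouts (chromosome 2, 119325784 to 119335962, plus strand), had 2, 5 and 0 counts in whole astrocyte TRAP. In endfeet libraries 1 to 6 it had 0, 207, 360, 81, 111 and 2 counts, or 0, 23.8, 23.6, 6.51, 8.17 and 0.913 CPM. Endfeet libraries 2 to 5 were thus high, whereas library 1 had none, which at its depth allows up to 0.562 CPM, and overlapped with whole astrocyte TRAP. The 2 counts of endfeet library 6 were below the 3 counts (1.37 CPM there) taken as the smallest amount that can be told from 0. The log2 fold change was 7.30 (SE 1.93, 95% interval 3.13 to 11.46, adjusted p = 0.011 in edgeR). It was 7.24 when whole astrocyte library 1 was left out (edgeR adjusted p = 0.054) and 7.57 when endfeet library 1 was left out (edgeR adjusted p = 0.0015).

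Dll1, a Delta-like ligand of neural progenitors (chromosome 17, 15367354 to 15376872, minus strand), was low in both groups. It had 12, 36 and 27 counts in whole astrocyte TRAP (0.324, 0.952 and 0.592 CPM) and 7, 52, 51, 24, 6 and 0 counts in endfeet libraries 1 to 6 (1.31, 5.97, 3.35, 1.93, 0.442 and 0 CPM). The groups overlapped, with 4 endfeet libraries above and 1 below all whole astrocyte libraries, and the log2 fold change of 1.82 did not pass the threshold (SE 1.22, 95% interval -0.83 to 4.46, adjusted p = 0.272 in edgeR). The count of 0 in endfeet library 6 allows up to 1.37 CPM. The log2 ratio of Dll4 to Dll1 was 5.12 higher in endfeet TRAP, but did not pass the threshold after adjustment (exact permutation p = 0.0357, adjusted 0.0536). Without endfeet library 1 the difference was 6.20 (exact permutation p = 0.0179, adjusted 0.0357). With any other library left out, the adjusted exact permutation p was 0.107 to 0.161. It was 0.0893 with counts summed over transcripts.

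Per kilobase of transcript, Jag1 made up 63.5% ± 6.48 (SD, n = 6) of the ligands in endfeet TRAP, followed by Jag2 with 23.3% ± 10.1, Dll4 with 10.9% ± 9.57 and Dll1 with 2.25% ± 2.11. In whole astrocyte TRAP the sum of the 4 ligands was 0.456 ± 0.0803 CPM per kilobase against 28.5 ± 10.01 in endfeet TRAP, and Dll1 made up 36.7% ± 12.7 (SD, n = 3) of it. Since these shares rest on between 0 and 55 counts a library, those of whole astrocyte TRAP are imprecise.

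The targets went another way. Hey1, a transcriptional repressor that Notch signalling turns on (chromosome 3, 8663359 to 8667256, minus strand), was the most abundant of the 10 mRNAs in whole astrocyte TRAP, with 595, 593 and 609 CPM from 22025, 22436 and 27755 counts. In endfeet libraries 1 to 6 it held 33.2, 137, 255, 265, 199 and 174 CPM. All endfeet libraries were below all whole astrocyte libraries, as held for 23.8% of all genes tested, and library 1 was the lowest. The log2 fold change was -1.76 (SE 0.440, 95% interval -2.71 to -0.81, adjusted p = 0.0078 in edgeR), or 3.38 times between the means, and -1.55 when endfeet library 1 was left out (edgeR adjusted p = 5.2e-04). Hey1 thus varied by 1.41% between whole astrocyte libraries and by 48.3% between endfeet libraries (coefficient of variation).

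Heyl, the related repressor known from smooth muscle cells and pericytes as well as astrocytes (chromosome 4, 123233556 to 123249875, plus strand), held 102, 101 and 109 CPM in whole astrocyte TRAP. In endfeet libraries 1 to 6 it held 52.3, 223, 135, 66.8, 55.1 and 133 CPM. Libraries 2, 3 and 6 were above and libraries 1, 4 and 5 below all whole astrocyte libraries. The log2 fold change was 0.10 (SE 0.446, 95% interval -0.87 to 1.06, adjusted p = 0.887 in edgeR), equal to the median of all genes, and its sign turned with the setting, as with endfeet libraries 4 to 6 alone (-0.42). The interval does not show that Heyl is unchanged.

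The log2 ratio of Heyl to Hey1 was higher by 1.90 in endfeet TRAP, with all 6 endfeet libraries above all whole astrocyte libraries, but it did not pass the threshold after adjustment over the 6 ratios (exact permutation p = 0.0357, adjusted 0.0536). The ratio ranged from -2.56 to -2.48 between whole astrocyte libraries and from -1.99 to 0.71 between endfeet libraries. Per kilobase, Heyl made up 8.47% ± 0.224 (SD, n = 3) of the summed level of both targets in whole astrocyte TRAP, against 28.02% ± 15.4 (SD, n = 6). That share was 45.7% in endfeet library 1 and 46.6% in library 2 but 11.9% and 12.9% in libraries 4 and 5.

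**Figure D3:**
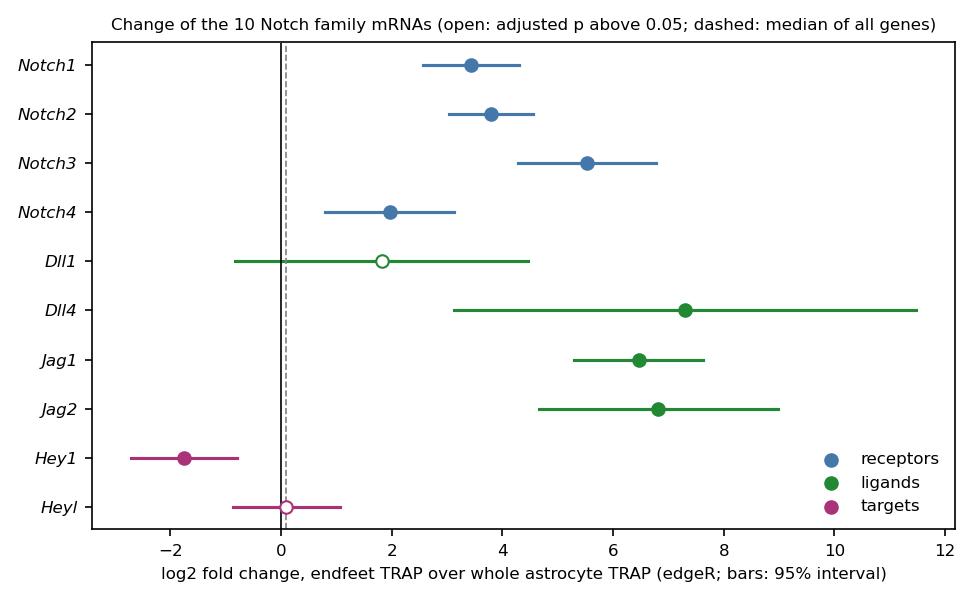
Log2 fold change of endfeet TRAP over whole astrocyte TRAP for each of the 10 mRNAs, with its 95% interval (edgeR), receptors in blue, ligands in green and targets in purple. Filled symbols passed the threshold, open symbols (Dll1 and Heyl) did not, and the dashed line is the median of all genes tested, 0.10.

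In order of their level per kilobase of transcript, the mRNAs of whole astrocyte TRAP were led by Hey1 with 247 ± 3.48 CPM per kilobase (SD, n = 3) and Heyl with 22.9 ± 0.989, followed by Notch2 (1.87), Notch1 (1.67), Notch4 (1.37), Notch3 (0.208), Jag1 (0.205), Dll1 (0.174), Jag2 (0.0601) and Dll4 (0.0166). The ranges over the libraries overlapped between Notch2 and Notch1, between Notch3 and Jag1, between Jag1 and Dll1 and between Jag2 and Dll4, and were apart for all other neighbours. The targets were thus above every receptor and every ligand in whole astrocyte TRAP. In endfeet TRAP the order was Hey1 (73.1 ± 35.3, n = 6), Notch2 (25.9), Heyl (24.5), Jag1 (18.1), Notch1 (17.98), Notch3 (9.64), Jag2 (6.96), Notch4 (5.31), Dll4 (2.80) and Dll1 (0.605), and the ranges of all neighbours overlapped.

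The genes whose profile over the 9 libraries was nearest to each mRNA were picked by the root mean square difference of their centred log2 levels. For Notch1 they were Actn4 (0.275) and Rai14 (0.276), for Notch2 Plekhh2 (0.123) and Man2a1 (0.156), for Notch3 Ceacam1 (0.416) and Itga9 (0.417), and for Notch4 H13 (0.170) and Nos1 (0.242). For Jag1 they were Col4a1 (0.385), a collagen chain of the vascular basement membrane, and Myof (0.391). For Jag2 they were E2f2 (0.675) and C130026I21Rik (0.730), for Dll4 Tbxa2r (0.974) and Pcdh12 (1.01), and for Dll1 Prdm10 (0.620) and 6820408C15Rik (0.677). For Hey1 they were Eno2 (0.224), an enolase known as a neuronal marker, and Camkk1 (0.274), and for Heyl Msl1 (0.272) and Xpo7 (0.322). The likeness is a description over 9 libraries that fall into 2 groups, and the differences were largest for Dll1, Dll4 and Jag2, the ligands with the fewest counts in whole astrocyte TRAP.

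The rest of the pathway was followed in a list of 44 genes ordered by role, of which 42 were tested (Dll3 and Psenen did not pass the filter). Of these, 14 rose, 5 fell and 23 did not pass the threshold, against 20.7% and 13.9% of all genes tested, and the median log2 fold change was 0.78. Without endfeet library 1, 13 rose and 6 fell, and without endfeet library 6, 17 rose and 5 fell. When whole astrocyte library 1, 2 or 3 was left out, 10, 9 and 9 of the 42 genes were called. Over all genes tested, 3130 of 14847, 3071 of 14849 and 3160 of 14852 were called in these settings. With the replicate number as a block, 13 of the 42 were called, beside 4459 of 14427 genes. The calls of 9 of the 19 genes were kept in every alternative in which they were tested, those of Mfng, Poglut1, Furin, Adam10, Adam17, Aph1a and Ep300 (higher) and of Hes5 and Nrarp (lower).

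Of the enzymes that cut the receptors, 6 of 8 tested were higher and none lower, beside 20.7% and 13.9% of all genes tested. Adam17 and Adam10, surface proteases of the ADAM family, rose by 3.25 ± 0.457 and 2.56 ± 0.368 (log2 fold change ± SE, adjusted p = 1.3e-04 and 1.6e-04 in edgeR). Furin, which cuts the receptor during its maturation, rose by 3.08 (SE 0.553). Of the gamma-secretase subunits, Aph1c rose by 2.85, Aph1a by 2.57 and Ncstn by 1.72, while Psen2 (2.32, adjusted p = 0.086 in edgeR) and Aph1b (1.10, adjusted p = 0.108 in edgeR) did not pass the threshold. Psenen, another subunit, did not pass the filter on low counts. It had 66 counts over the whole astrocyte libraries (0.397 to 0.784 CPM) and 3 over the endfeet libraries (0 to 0.131 CPM). By these values all endfeet libraries were below, as held for 23.8% of all genes tested. In endfeet libraries 1 and 6, however, 3 counts stood for 0.562 and 1.37 CPM. These libraries therefore cannot be placed below the whole astrocyte libraries. With endfeet libraries 4 to 6 alone Psenen was lower (edgeR adjusted p = 0.015), but it was not past the threshold over all libraries without the filter (adjusted p = 0.067 in edgeR).

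Among the enzymes that add sugars to the receptors, 3 of 5 rose and none fell, beside 20.7% and 13.9% of all genes tested. Mfng, a Fringe enzyme that changes which ligands a receptor binds, had the largest change of the list, from 0.209 ± 0.0885 (SD, n = 3) to 41.8 ± 24.6 CPM (SD, n = 6), or 7.59 on the log2 scale (SE 0.925, edgeR adjusted p = 4.3e-05). The other Fringe enzymes, Lfng (-0.71, adjusted p = 0.442 in edgeR) and Rfng (-0.92, adjusted p = 0.445 in edgeR), did not pass the threshold. Poglut1 and Pofut1, which start the glucose and fucose chains, had log2 fold changes of 2.43 and 2.20, the latter with an adjusted p of 0.045 in edgeR and kept in 7 of 17 alternatives.

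Of the 4 proteins of ligand endocytosis only Neurl1b rose (2.47, adjusted p = 0.044 in edgeR, kept in 9 of 18 alternatives), while Mib1 (0.44), Mib2 (-0.05) and Neurl1a (-1.55) did not pass the threshold. Of the 3 other ligands tested, Dner, a neuronal ligand, rose (1.44, adjusted p = 0.021 in edgeR, kept in 13 of 18 alternatives), and Dlk1 (0.50) and Dlk2 (0.80) did not pass. In the nuclear complex, out of 10, Ep300, a histone acetylase, rose in every alternative (1.69). Maml3, a coactivator (2.11, adjusted p = 0.045 in edgeR), and Spen, a corepressor (1.08, adjusted p = 0.033 in edgeR), rose as well, but kept their calls in 8 and 9 of 18 alternatives, and Maml3 stood at 0.76 with endfeet libraries 4 to 6 only. Snw1 fell (-1.22, adjusted p = 0.034 in edgeR, kept in 12 of 18 alternatives). Rbpj itself was short of the threshold (1.10, SE 0.510, edgeR adjusted p = 0.113). Of the 8 genes of turnover and inhibition, Dtx1 fell (-2.51, adjusted p = 0.020 in edgeR, kept in 14 of 17 alternatives) and none rose. Beside the counts of these roles, 20.7% of all genes tested rose and 13.9% fell.

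The other targets, Hes1, Hes5, Hey2 and Nrarp, were tested apart from Hey1 and Heyl, and 3 of 4 fell, beside 13.9% of all genes tested. Hes5, a repressor that maintains neural stem cells, held 84.5 ± 8.97 CPM (SD, n = 3) in whole astrocyte TRAP against 3.61 ± 4.88 CPM (SD, n = 6), which is -4.54 on the log2 scale (SE 0.886, edgeR adjusted p = 0.0015). Nrarp, a feedback inhibitor of the Notch complex, fell from 279.5 ± 11.5 to 36.5 ± 14.8 CPM (-2.94, SE 0.353, adjusted p = 3.9e-05 in edgeR). Hes1 fell from 42.3 ± 4.87 to 12.6 ± 7.51 CPM (-1.73, SE 0.602, adjusted p = 0.041 in edgeR), a call kept in 10 of 17 alternatives, and Hey2 did not pass the threshold (-0.44, adjusted p = 0.436 in edgeR). With Hey1 and Heyl, 4 of the 6 targets fell and none rose, beside 13.9% and 20.7% of all genes tested. All 4 receptors rose in these libraries. Of the 8 astrocyte markers, Sox9, Aldh1l1 and Gjb6 fell as well (log2 fold changes -3.27, -2.38 and -1.44) and Aqp4 rose (1.67). The others, Gfap (-0.53), Gja1 (-0.0073), Slc1a3 (0.27) and Slc1a2 (0.93), did not pass the threshold. The part that the astrocyte share of a library has in the levels of the targets was not tested.

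**Figure D4:**
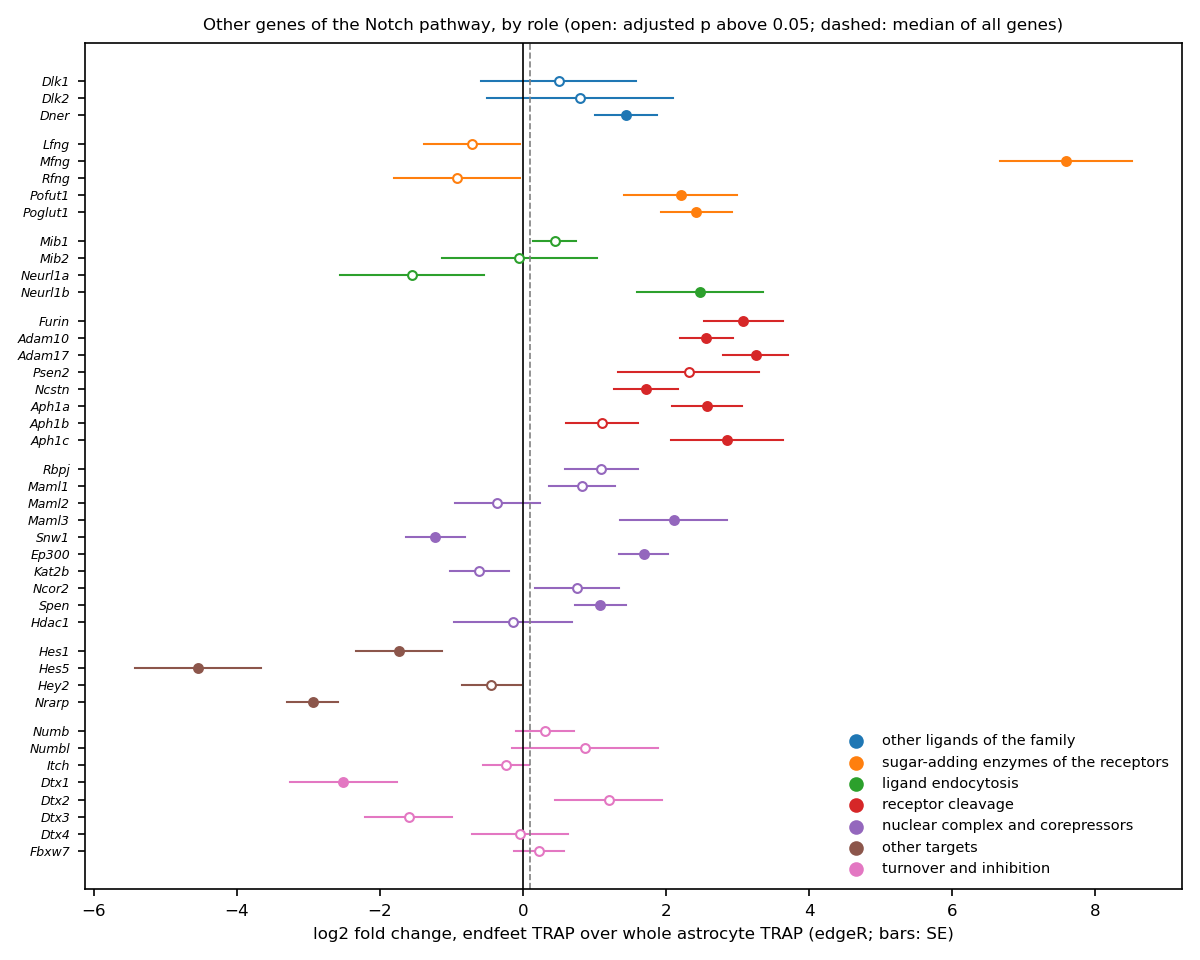
Log2 fold change of endfeet TRAP over whole astrocyte TRAP (edgeR, bars are SE) for the 42 tested genes of the pathway list, grouped and coloured by role. Filled symbols passed the threshold, as did 6 of 8 cleavage genes, all above 0, and 3 of 4 other targets, all below 0. Over all genes tested, 20.7% passed above 0 and 13.9% below 0, and the dashed line is their median, 0.10.

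RBPJ binds DNA at sites with the core TGGGAA, often within GTGGGAA. The RefSeq promoter table (GRCm38.p6) was searched on both strands over the 250 bases before each start site, where 21.6% of 32851 promoters hold TGGGAA and 5.42% hold GTGGGAA. Entries were matched for the receptors and ligands and for Hes5, Hey2 and Nrarp, and only Hes5 and Hey2 among them had a match. Hes5, the target with the largest fall, had 2 matches of GTGGGAA, as 0.161% of all promoters have 2 or more. Nrarp, which fell as well, had none, and Hey2, which did not pass the threshold, had 1. These matches are shown in 30 bases each, 5′ to 3′ along the strand that reads GTGGGAA, which is in capitals. The first match of Hes5, 226 bases before the start, is at chr4:154960685-154960714 on the minus strand, the second, 82 bases before the start, at chr4:154960829-154960858 on the plus strand, and that of Hey2, 207 bases before the start, at chr10:30842973-30843002 on the plus strand, opposite to the gene.
Hes5 first match: atgtccgggctGTGGGAAcgcgctcgccct
Hes5 second match: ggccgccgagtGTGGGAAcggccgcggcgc
Hey2 match: ttggcagaggcGTGGGAAtgccaccgcgca
A match is a description of the letters and not a bound site, and no binding was measured in these libraries. Hey1, Heyl and Hes1 had no entry in the table.

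Some rows may share reads with other genes. In GENCODE M21, exons of Notch1 overlap those of 0610009E02Rik and Gm13568, exons of Notch3 those of Gm17276, exons of Dll1 those of A930024N18Rik and exons of Dll4 those of Gm14207, each on the opposite strand, and exons of Notch2 overlap those of Gm42820 on the same strand. Whether strand was used in counting is not given in the sources used here, so reads of these genes cannot be told apart from those of their partners. Notch4, Jag1, Jag2, Hey1 and Heyl have no such overlap.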

How the data were processed

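RNA from Aldh1L1 JD130 mice of 2 months was measured in 3 whole astrocyte TRAP and 6 endfeet TRAP libraries, grouped by their labels. The authors amplified the polysomal RNA (NuGEN Ovation), sequenced reads of 50 bp, mapped them on mm10 by Bowtie, dropped those with several alignments and counted the rest with HTSeq-count 0.5.3 on Ensembl annotation. What they deposited is a raw count for each Ensembl transcript, not normalized.

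Of 75466 transcripts, 73164 were matched to 22092 genes of GENCODE M21 (mm10), and 2302 were not used. Since transcripts of a gene repeat reads, the transcript with the largest CPM total across the 9 libraries stood for its gene. Libraries were compared with edgeR 4.0.16 (TMM, filterByExpr, glmQLFit, glmQLFTest) under R 4.3.3, adjusting over 14427 genes by Benjamini-Hochberg with a threshold of 0.05. The standard error is the size of the log2 change over the root of F, and 95% intervals use the test's degrees of freedom. Log2 ratios of 2 genes in a library were computed with 0.5 counts added and compared by two-sided exact permutation tests over 84 splits. Tables were handled with pandas 2.3.3 and numpy 2.4.6 (Python 3.11.15).

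The 10 genes, the pathway list and the markers were chosen with earlier results of these data known. The text names all 10 genes, every gene of a role with up to 5 genes, elsewhere the genes with the largest changes and, chosen after the values were seen, Rbpj, Spen and the cleavage genes, and for each of the 10 the 2 nearest profiles. Alternatives were DESeq2 1.42.0 with and without its prior, limma 3.58.1 voom with a weight per group, DESeq2 size factors, no filter, at least 10 counts in every library, counts summed over transcripts, endfeet libraries 4 to 6 only, the replicate number as a block, a pseudocount of 2 counts, and each library left out. The counts of the pathway list leave out a gene that is not reported here. The scripts were tested on simulated data. Amplified reads are not independent molecules, so floors of 3 counts cover counting error only, and p-values measure the spread between these libraries.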

Additional observations from a re-analysis of the deposited data

How the results depend on the processing

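Of the 10 mRNAs, 6 to 8 were called in every alternative. Notch1, Notch2, Notch3, Jag1, Jag2 and Hey1 kept their call and direction wherever they were tested, Dll1 stayed short of the threshold, and a minimum of 10 counts in every library left Dll1, Dll4 and Jag2 untested. Notch4 missed the threshold with endfeet libraries 4 to 6 only (log2 fold change 1.38) and without each whole astrocyte library (1.82 to 2.14 over all libraries left out). Dll4 missed it with the replicate number as a block (7.004, edgeR adjusted p = 0.056) and without whole astrocyte library 1 (6.70 to 8.32 over all libraries left out). Heyl, never past the threshold, turned negative with voom (-0.15), a minimum of 10 counts (-0.045), endfeet libraries 4 to 6 only (-0.42) and without endfeet library 2 (-0.16 to 0.21 over all libraries left out). The ratio of Dll4 to Dll1 passed the threshold only with 2 counts added (4.21) and without endfeet library 1 (4.03 to 6.20 over all libraries left out). Those of Notch3 and Notch4 to Notch1 missed it with endfeet libraries 4 to 6 only (2.39 and -1.67) and with any library but endfeet library 1 left out (1.82 to 2.47 and -1.58 to -1.40 over all libraries left out), where fewer splits are possible. Jag2 to Jag1 turned to -0.56 without whole astrocyte library 1 (-0.56 to 1.23). Genes of the pathway list called numbered 9 to 22 with a library left out, against 19. Over all genes, 4997 were called, 8413 with voom (3928 higher and 4485 lower, with the median of all genes at -0.29) and 3071 to 6022 with a library left out. The share of calls that were higher was 59.9%, 46.7% with voom and 49.8% with endfeet libraries 4 to 6 only. Except where said, the cause of these differences was not tested.

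Libraries of the same number did not deviate together (r of -0.0339, 0.00847 and 0.0715 for numbers 1 to 3), and not every library correlated best with its own number, so the numbers were not taken as pairs. The replicate block called 7 of the 10 mRNAs, 13 genes of the pathway list and 4459 of all genes. Depth limits Dll1, Dll4 and Jag2 most, which had 0 to 36 counts in whole astrocyte libraries. By Dixon's test at the 95% level, 0 of the 10 mRNAs had an endfeet library apart from the other endfeet libraries.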
